A study of Arabidopsis thaliana with 3 samples.

Results

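The histone genes described here are the 45 of 19777 genes in the authors' deposited comparison table whose gene description opens with "histone" or "core histone", leaving out names that hold acetyl, methyl, binding, chaperone or ubiquit. By locus, 43 of them encode histones and fall into the linker histone H1 (1 gene), H2A (4 canonical, 1 H2A.X, 3 H2A.W and 4 H2A.Z genes), H2B (11), H3 (5 H3.1, 3 H3.3 and 3 others) and H4 (8). The other 2, AT5G50930 and AT5G19490, carry a histone fold but are no nucleosome subunits: RefSeq lists MHF1 as a synonym of the first, and its record of the second names a domain shared with NF-Y transcription factors. The rule misses 3 histone loci of the table, 2 of H1 and AT1G54690 of H2A.X, which are given below as a comparison.

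RNA was measured by poly(A) sequencing of paired 150-base reads in inflorescence meristems with flower buds of Arabidopsis thaliana, in 3 independent transgenic lines with 1 library each. All 3 lines carry the sep1, sep2 and sep3 mutations and express SEP3Δtet, a splice variant of the MADS transcription factor SEPALLATA3 according to the series title. By the labels, line 1 was collected up to stages 10 to 11, line 2 up to 10 to 12 and line 3 up to 10 to 13. The design text has 10 to 11 throughout, with plants grown side by side in long days. The table compares these lines with the same triple mutant without SEP3Δtet, gives 1 value per gene, and holds no level for any library, so the spread between lines is not shown and the depth is unknown. No library of the triple mutant is among the 3 samples, and no label used here gives its bud stage or batch. A difference in stage or batch between the mutant and the lines cannot be told apart from an effect of SEP3Δtet. No source used here gives the promoter that drives SEP3Δtet. SEP3 itself stood 4.82-fold above the triple mutant in the authors' deposited table (adjusted p = 1.1e-04, edgeR's quasi-likelihood test). Positive log2 fold changes are read, from this and from the order of the comparison's name, as higher in the transgenic lines.

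Nucleosomes wrap DNA around a core of paired H2A, H2B, H3 and H4 subunits, and H1 binds the linker between them. The canonical forms, including H3.1 in plants, are made mainly in S phase to package newly copied DNA, so their RNA is abundant in dividing tissue such as meristems and young buds. Variants are placed outside replication: H3.3 at transcribed genes, H2A.Z near gene starts, H2A.W in heterochromatin, H2A.X as a substrate of DNA damage signalling, and the centromeric H3 (CENH3) at kinetochores. Plant histone messages are polyadenylated, so poly(A) libraries hold both kinds.

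To show the promoter elements that differ between histone classes, 5 promoters are given as windows of 300 bases, from 250 before to 50 after the annotated gene start in RefSeq's TAIR10.1 annotation. The first 2 belong to the histone genes that changed, the next 2 to the histone genes with a pair of octamers each, and the last to the most abundant H2B gene. Capitals mark matches on either strand of the plant histone octamer, CGCGGATC, and the hexamer ACGTCA, elements known from plant histone promoters.
AT1G13370 (H3), chr1:4588612-4588911, minus strand: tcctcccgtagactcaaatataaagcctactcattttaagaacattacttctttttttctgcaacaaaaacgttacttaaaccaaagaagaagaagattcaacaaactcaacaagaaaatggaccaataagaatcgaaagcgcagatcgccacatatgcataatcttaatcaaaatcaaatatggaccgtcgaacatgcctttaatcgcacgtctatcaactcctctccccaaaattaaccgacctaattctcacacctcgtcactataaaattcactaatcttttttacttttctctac
AT3G09480 (H2B), chr3:2915393-2915692, minus strand: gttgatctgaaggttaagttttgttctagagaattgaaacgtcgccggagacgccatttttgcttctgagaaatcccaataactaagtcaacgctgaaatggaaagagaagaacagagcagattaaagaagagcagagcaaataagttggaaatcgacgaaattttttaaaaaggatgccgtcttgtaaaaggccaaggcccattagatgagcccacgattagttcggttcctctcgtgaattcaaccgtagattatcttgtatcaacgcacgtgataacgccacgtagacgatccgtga
AT1G09200 (H3.1), chr1:2972285-2972584, minus strand: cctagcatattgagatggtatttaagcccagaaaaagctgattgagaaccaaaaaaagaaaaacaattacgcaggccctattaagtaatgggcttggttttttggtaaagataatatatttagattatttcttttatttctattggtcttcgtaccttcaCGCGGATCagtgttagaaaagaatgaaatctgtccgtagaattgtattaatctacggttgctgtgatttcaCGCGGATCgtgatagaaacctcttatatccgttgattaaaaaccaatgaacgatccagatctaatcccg
AT1G51060 (HTA10, H2A), chr1:18926561-18926860, plus strand: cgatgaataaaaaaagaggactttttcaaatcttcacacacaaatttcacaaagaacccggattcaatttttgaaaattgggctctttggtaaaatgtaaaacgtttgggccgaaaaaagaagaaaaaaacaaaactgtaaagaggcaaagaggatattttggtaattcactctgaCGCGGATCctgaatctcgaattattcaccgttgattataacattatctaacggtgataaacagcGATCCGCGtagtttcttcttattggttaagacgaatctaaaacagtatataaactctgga
AT5G22880 (HTB2, H2B), chr5:7652665-7652964, minus strand: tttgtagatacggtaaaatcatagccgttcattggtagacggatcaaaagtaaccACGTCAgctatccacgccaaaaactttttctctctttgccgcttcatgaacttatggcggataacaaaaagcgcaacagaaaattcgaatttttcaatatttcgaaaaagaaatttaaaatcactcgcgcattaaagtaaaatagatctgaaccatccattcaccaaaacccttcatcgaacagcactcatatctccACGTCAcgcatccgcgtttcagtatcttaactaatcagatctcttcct
The first 2 windows hold neither element, as do those of many uncalled histone genes, and the 2 windows of AT1G09200 and HTA10 hold 2 octamers each. Counted in bases from the gene start, these begin at -90 and -19 in AT1G09200 and at -74 and -10 in HTA10. HTB2 has hexamers at -195 and 2, counted in bases from its gene start.

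Few histone genes differed in RNA level between the transgenic lines and the triple mutant. Of the 45 genes 2 rose, 0 fell and 43 did not pass the test at an adjusted p of 0.05 (edgeR's quasi-likelihood test, adjusted over all 19777 genes by the authors). Of all genes in the authors' deposited table, 11.6% were higher and 5.88% lower, against 4.44% and 0% of the histone genes. At an unadjusted p of 0.05, 3 of the 45 passed, against 29.7% of all genes. The 2 that rose were AT1G13370, which encodes an H3, and AT3G09480, which encodes an H2B. Both are among the less abundant histone genes. In RNA of whole buds, more cells of a type and more RNA per cell cannot be told apart, nor can fewer cells and less RNA. AT1G13370 alone remained at an adjusted p under 0.01 and with a minimum log2 fold change of 1, where 7.49% and 7.9% of all genes in the authors' deposited table were higher. None of the 45 passed a Bonferroni correction, which 2.43% of all genes passed as higher. Both genes remained called when only genes averaging 1 log2 CPM or more were adjusted (9.68% of these higher, 6.18% lower), and when all fold changes were recentred on the median of abundant genes and the statistic recomputed (12.7% higher, 4.32% lower).

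**Figure D1:**
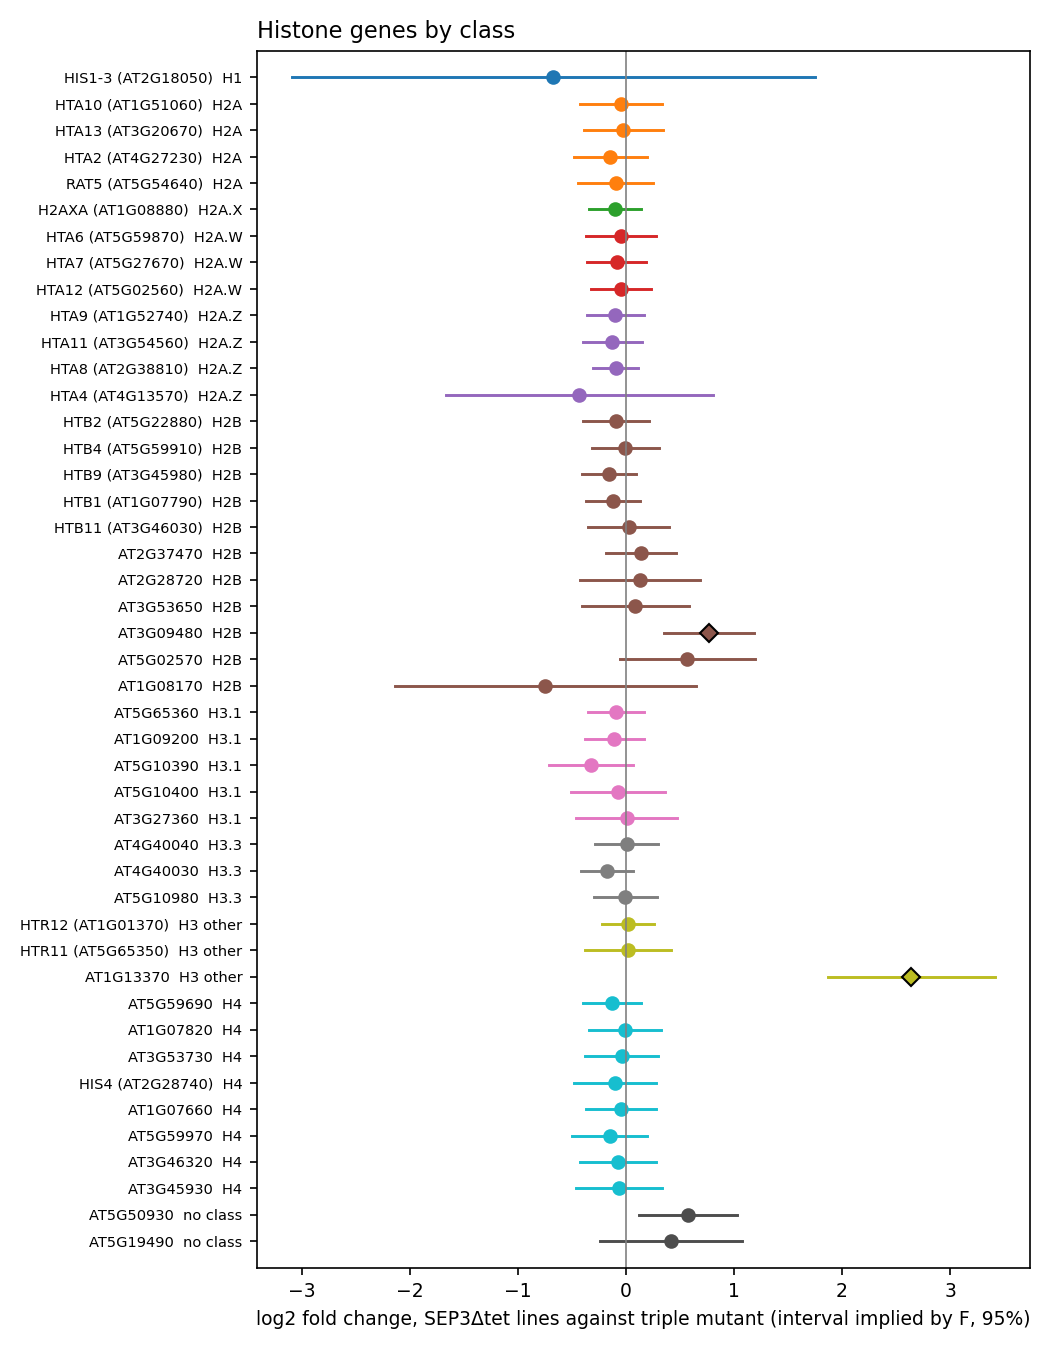
Log2 fold change of each of the 45 histone genes (x axis, SEP3Δtet lines against the triple mutant), grouped by class and ordered by abundance within it. Points are values of the authors' deposited table, bars the approximate 95% intervals implied by F, and diamonds the 2 genes called higher. Most genes sit close to 0 and the widest bars belong to genes under 2 log2 CPM.

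AT1G13370 was 6.25-fold higher in the authors' deposited table, a log2 fold change of 2.64 (edgeR's quasi-likelihood test, F = 56.1, adjusted p = 2.5e-04). Its approximate 95% interval, obtained by taking the absolute log2 fold change over the square root of F as a standard error of 0.35, ran from 1.87 to 3.41 on the log2 scale. The gene averaged 1.04 log2 CPM in the authors' deposited table, over every library they compared, or 1.56 log2 CPM per kb of transcript. In TAIR10.1 it spans bases 4587780 to 4588661 of chromosome 1, minus strand, in 3 exons. Its protein of 136 residues, as translated from the annotation, differs from H3.3 at 7 residues and from H3.1 at 9. None of its transcript's 50-base windows occurs in a transcript of another gene, so reads shared with the abundant H3 genes would need mismatches.

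AT3G09480 was 1.70-fold higher in the authors' deposited table, a log2 fold change of 0.77 (edgeR's quasi-likelihood test, F = 16.1, adjusted p = 0.016), with an approximate 95% interval from 0.35 to 1.18. It averaged 3.90 log2 CPM in the authors' deposited table, or 4.33 log2 CPM per kb. The gene is a single exon at bases 2914701 to 2915442 of chromosome 3 in TAIR10.1, minus strand, and it too shares no 50-base window. At 126 residues its protein is the shortest of the 11 H2B proteins and matches the H2B of AT5G02570 most closely, with 87.9% identity. AT5G02570 itself stood at a log2 fold change of 0.57 in the authors' deposited table (adjusted p = 0.214), short of the threshold by edgeR's quasi-likelihood test. It overlaps the H2A.W gene HTA12 on the other strand, so without stated strand-aware counting its reads cannot be told apart from those of HTA12.

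The more abundant members were not called. Of the 45 genes, 36 averaged at least 4 log2 CPM, and among these 0 rose, 0 fell and 0 had an unadjusted p under 0.05 (edgeR's quasi-likelihood test), with a smallest adjusted p of 0.262. Among all genes that abundant in the authors' deposited table, 6.55% were higher and 8.18% lower. Below 4 log2 CPM 2 of 9 histone genes were higher and 0 lower, against 18.8% and 2.61% of all genes in that range. The median absolute log2 fold change of the 36 was 0.09, against 0.14 for all genes of at least 4 log2 CPM, as a description of the authors' deposited table. The standard error implied by F had a median of 0.15 over the 36, against 0.11 for all genes that abundant. A change of a given size was thus less readily called among the 36, and the shares called are to be read with this limit.

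**Figure D2:**
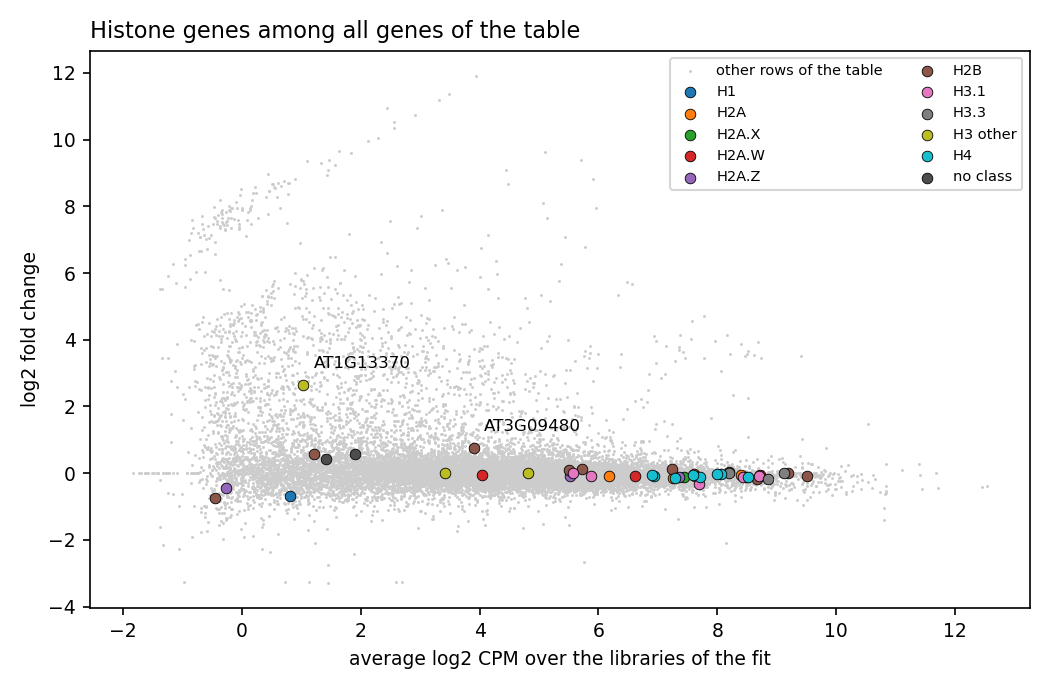
Average log2 CPM (x axis) against log2 fold change (y axis) for all 19777 genes (grey) and the 45 histone genes (coloured by class), from the authors' deposited table. The 36 histone genes of at least 4 log2 CPM lie between -0.32 and 0.14, and the labelled AT1G13370 and AT3G09480 are the 2 called higher.

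Size limits can be put on the 43 genes that were not called. The approximate 95% interval lay within a 2-fold change in either direction for 37 of them, and within a 1.5-fold change for 34. All 36 genes of at least 4 log2 CPM had an interval within 2-fold, reaching from -0.71 to 0.68 on the log2 scale at its widest. The 6 uncalled genes whose interval passed 2-fold were HIS1-3, HTA4, AT1G08170, AT5G02570, AT5G50930 and AT5G19490, and each averaged under 2 log2 CPM in the authors' deposited table. For these a missed call does not show an equal level.

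The most abundant gene of each class by log2 CPM shows what bounds were put on the family's main sources of RNA. For H2B this was HTB2, at -0.09 in the authors' deposited table with an approximate interval from -0.40 to 0.21 (adjusted p = 0.720, edgeR's quasi-likelihood test). For H3.1 it was AT5G65360, at -0.09 with an interval from -0.35 to 0.17, and for H3.3 AT4G40040, at 0.01 with an interval from -0.28 to 0.30, both taken from the authors' deposited table. For H4 it was AT5G59690, at -0.13 in the authors' deposited table with an interval from -0.40 to 0.14. Each of these intervals included 0. Among the H2A types HTA10, HTA6 and HTA9 led the canonical, H2A.W and H2A.Z genes, with intervals of -0.42 to 0.33, -0.37 to 0.28 and -0.36 to 0.17 around the log2 fold changes of the authors' deposited table. These intervals too lay on both sides of 0. HTA9 overlaps AT1G52750 on the other strand, and strand-aware counting is not stated, so its value may hold reads of that gene.

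The core subunit H4, whose 8 genes encode 1 and the same protein of 103 residues in their full-length form, gave no call. The log2 fold changes of the 8 genes ran from -0.15 (AT5G59970) to -0.01 (AT1G07820) in the authors' deposited table, and none passed the test (smallest adjusted p = 0.549, edgeR's quasi-likelihood test). All 8 were below 0, but after recentring on the median of abundant genes (-0.04) 2 were above it. Their abundance spanned 7.43 to 8.94 log2 CPM per kb, led by AT5G59690. Some of these copies are alike over long stretches: 26.7% of the 50-base windows of AT1G07660 occur in AT1G07820, and 27.9% of those of AT3G46320 occur in AT3G45930, so the split of reads within such pairs is uncertain.

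H3.1, the replication form of H3, is also encoded by genes with an identical protein. The 5 genes had log2 fold changes from -0.32 (AT5G10390) to 0.01 (AT3G27360) in the authors' deposited table. AT5G10390 was the lowest of the 36 abundant histone genes, and its approximate interval of -0.71 to 0.07 included 0 (adjusted p = 0.262, edgeR's quasi-likelihood test). AT5G65360 was the most abundant H3.1 gene, at 9.17 log2 CPM per kb, and AT3G27360 the least, at 5.84. In AT3G27360 26.2% of the 150-base windows, the length of a read, also lie in a transcript of another gene, because AT3G27380 overlaps it on the same strand, so its value is uncertain.

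H3.3, the form used outside replication, stood at -0.18 (AT4G40030), 0.01 (AT4G40040) and -0.01 (AT5G10980) on the log2 fold change scale of the authors' deposited table. None of the 3 genes passed the test (smallest adjusted p = 0.330, edgeR's quasi-likelihood test). They were among the most abundant histone genes, between 8.48 and 8.80 log2 CPM per kb. AT1G13370, whose protein lies nearer to H3.3 than to H3.1, was the 1 H3 gene called. CENH3 (HTR12), which marks centromeres, was at 0.02 and HTR11 at 0.02 in the authors' deposited table, with adjusted p of 0.936 and 0.962 by edgeR's quasi-likelihood test. The sperm histone gene MGH3 and 2 further H3 loci of the list, AT1G75600 and AT5G12910, have no value in the authors' deposited table.

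The 12 H2A genes all had negative log2 fold changes and none passed the test (edgeR's quasi-likelihood test). After recentring 11 of the 12 stayed below 0, and HTA13 moved to 0.016. Of the 11, HTA6 (-0.0002), HTA12 (-0.0037) and HTA10 (-0.0050) then lay almost at 0. Among all 11607 genes of at least 4 log2 CPM, 6774 were below 0 before recentring and 5803 after it. Canonical H2A ran from -0.14 (HTA2) to -0.03 (HTA13) in the authors' deposited table, with HTA10 the most abundant at 8.65 log2 CPM per kb. Of the heterochromatin variant H2A.W, HTA6 was at -0.04, HTA7 at -0.09 and HTA12 at -0.05 in the authors' deposited table. HTA6 was far more abundant than HTA12, at 9.08 against 3.52 log2 CPM per kb. The H2A.Z genes HTA8, HTA9 and HTA11 lay between -0.13 and -0.10 in the authors' deposited table. HTA4, the least abundant of the H2A.Z genes, was at -0.43 with an approximate interval from -1.67 to 0.80. Without stated strand-aware counting, the values of HTA4 and HTA13 may hold reads of AT4G13564 and AT3G20680, which overlap them on the other strand. The H2A.X gene H2AXA was at -0.10 in the authors' deposited table.

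H2B showed the widest spread of any class with more than 3 genes. Of its 11 genes 1 rose, 0 fell and 10 did not pass the test (edgeR's quasi-likelihood test). The 1 higher gene is 9.09% of the class, near the 11.6% higher among all genes. The log2 fold changes ran from -0.75 (AT1G08170) to 0.77 (AT3G09480) in the authors' deposited table. The most abundant genes stayed near 0: HTB1 was at -0.12, HTB4 at -0.005, HTB9 at -0.16 and HTB11 at 0.02 in the authors' deposited table. HTB9 overlaps AT3G07315 and AT3G45970 on the other strand, and strand-aware counting is not stated, so its value may hold reads of those genes. HTB2 led the whole family in abundance, at 9.74 log2 CPM per kb. AT1G08170, whose protein of 243 residues is the longest H2B and shares at most 31.3% identity with any other, averaged -0.44 log2 CPM in the authors' deposited table, and its interval reached from -2.14 to 0.65.

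The single linker histone gene found by the rule, HIS1-3, a variant known for its induction by drought, was at -0.67 in the authors' deposited table (adjusted p = 0.749, edgeR's quasi-likelihood test). At 0.81 log2 CPM its interval was the widest of all, from -3.09 to 1.75. The main linker histone genes AT1G06760 and AT2G30620, which the rule leaves out, and AT1G54690 had log2 fold changes between -0.15 and -0.09 in the authors' deposited table, and none of the 3 was called (smallest adjusted p = 0.370, edgeR's quasi-likelihood test). The histone-fold gene MHF1 (AT5G50930), whose product acts with the FANCM helicase in limiting meiotic crossovers, was at 0.58 in the authors' deposited table with an unadjusted p of 0.017 and an adjusted p of 0.080 (edgeR's quasi-likelihood test). AT5G19490 was at 0.42 (adjusted p = 0.40, edgeR's quasi-likelihood test) in the authors' deposited table. It overlaps AT5G19485 on the same strand, so its value may hold reads of that gene.

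The octamer was more frequent in the histone promoters than in promoters at large. It occurs in 9 of the 45 promoter windows (20.0%) and in 40 of all 27443 nuclear protein-coding promoter windows of the annotation (0.146%). Windows with 2 or more octamers number 2 in the whole annotation, and both belong to the histone genes AT1G09200 and HTA10. By class it was found in 3 of 5 H3.1, 2 of 4 canonical H2A, 2 of 8 H4, 1 of 3 H3.3 and 1 of 3 H2A.W genes, and in 0 of 11 H2B genes. None of these 9 genes was called by edgeR's quasi-likelihood test (smallest adjusted p = 0.549), and their log2 fold changes ran from -0.13 to 0.01 in the authors' deposited table.

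The hexamer had another distribution over the classes. It occurs in 13 of 45 histone windows (28.9%) and in 9.19% of all windows, and 9 of the 13 belong to H2B. The 2 H2B genes without it are AT3G09480, the 1 that rose, and AT1G08170, which was not called. In all, 21 of the 45 histone windows hold an octamer or a hexamer and 1, that of AT5G10400, holds both. The rest hold neither, and all but 2 of those belong to uncalled genes, so lacking both is not particular to the genes that rose. The CCAAT box (CCAAT) is in 73.3% of the histone windows and 51.6% of all windows. Sites of E2F, the S-phase transcription factor, were searched as TTTCCCGC, TTTGCCGC, TTTCGCGC and TTTGGCGC and are in 3 histone windows (6.67%) and 1.76% of all windows. The CArG box, the element bound by MADS proteins, was searched only as CC, then 6 of A or T, then GG. This form has no match in the 45 windows and one in 3.05% of all windows, a share at which few matches would fall in 45 windows. The other motifs were matched letter by letter. Both strands were searched for all motifs, no 2 matches overlapped in a histone window, and a match or its lack says nothing of binding.

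**Figure D3:**
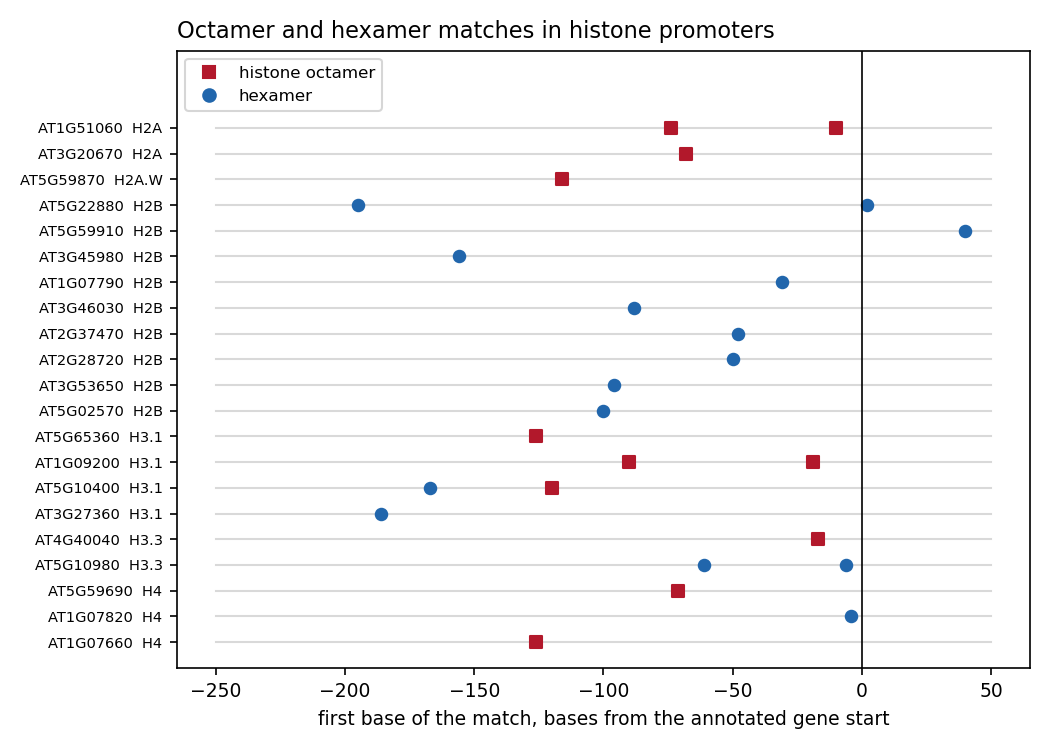
First base of each octamer (red squares) and hexamer (blue circles) match, in bases from the annotated gene start (x axis), for the 21 histone genes with either element. Octamers lie among H2A, H3 and H4 genes and hexamers mostly in H2B genes. Neither AT1G13370 nor AT3G09480 is in the plot, and many uncalled histone genes are also absent from it.

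Gene structure also followed class. All 11 H2B genes, all 5 H3.1 genes and 7 of 8 H4 genes have a single exon, while each H2A, H3.3 and H1 gene in the set has several. Of the 24 single-exon genes 1 was called, and of the 21 with more exons 1 was called, both as higher. Of all genes 11.6% were higher and 5.88% lower, so counts this small show no tie to structure. Pairs of neighbours with no gene between them were AT4G40030 with AT4G40040 (42 bases apart), AT5G10390 with AT5G10400 (577 bases) and AT5G65350 with AT5G65360 (33 bases), besides the overlapping HTA12 and AT5G02570. In these 4 pairs neither gene was called, but the pairs are too few to read beside the shares of all genes.

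Genes that act with histones or in the cell cycle are read beside the 11.6% higher and 5.88% lower of all genes in the authors' deposited table. Of 19 genes of histone chaperones and H2A.Z deposition 0 rose and 0 fell (edgeR's quasi-likelihood test), 0 had an unadjusted p under 0.05, and their log2 fold changes ran from -0.24 (PIE1, of the complex that deposits H2A.Z) to 0.18 (NRP1, a NAP1-related chaperone) in the authors' deposited table. Of 26 DNA replication genes 1 fell (3.85%, near the 5.88% of all genes), 0 rose and 25 were not called. At an unadjusted p under 0.05 (edgeR's quasi-likelihood test) there were 5 of the 26, a smaller share than the 29.7% of all genes. These 5 (MCM7, RNR1, MCM4, MCM6 and E2FA) had negative log2 fold changes in the authors' deposited table, between -0.30 and -0.25. The gene that fell was MCM7, a subunit of the replicative helicase, at -0.30 in the authors' deposited table (adjusted p = 0.049, edgeR's quasi-likelihood test). MCM7 was no longer called when adjustment was limited to genes averaging 1 log2 CPM or more. The median over the 26 was -0.18, against -0.04 for all genes of at least 4 log2 CPM in the authors' deposited table. Some of the 26 averaged under 4 log2 CPM, where the median of all genes was 0.11, so the sets differ in abundance. Below 0 were 20 of the 26, and 6774 of the 11607 genes of at least 4 log2 CPM. Of 11 G2 and M phase genes 0 were called, and 0 had an unadjusted p under 0.05, with a median of -0.04.

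The tissue of the libraries differed in composition markers beside these values. All 9 tapetum markers were higher by edgeR's quasi-likelihood test, with a median log2 fold change of 3.56, and 8 of 12 meiocyte markers were higher and 0 lower, with a median of 0.83, in the authors' deposited table. Of the 7 male germline and pollen markers 3 were measured and 0 called by edgeR's quasi-likelihood test, though 2 had an unadjusted p under 0.05. The 3 had positive log2 fold changes, from 0.67 to 7.48, and averaged at most 0.83 log2 CPM. Their missing calls do not show an equal level. Each of the 9 markers of photosynthetic tissue was lower. Among 7 meristem and floral identity markers 3 were higher, 2 lower and 2 not called. The levels of these markers in each library are not given, and their part in the rise of AT1G13370 and AT3G09480 was not tested.

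**Figure D4:**
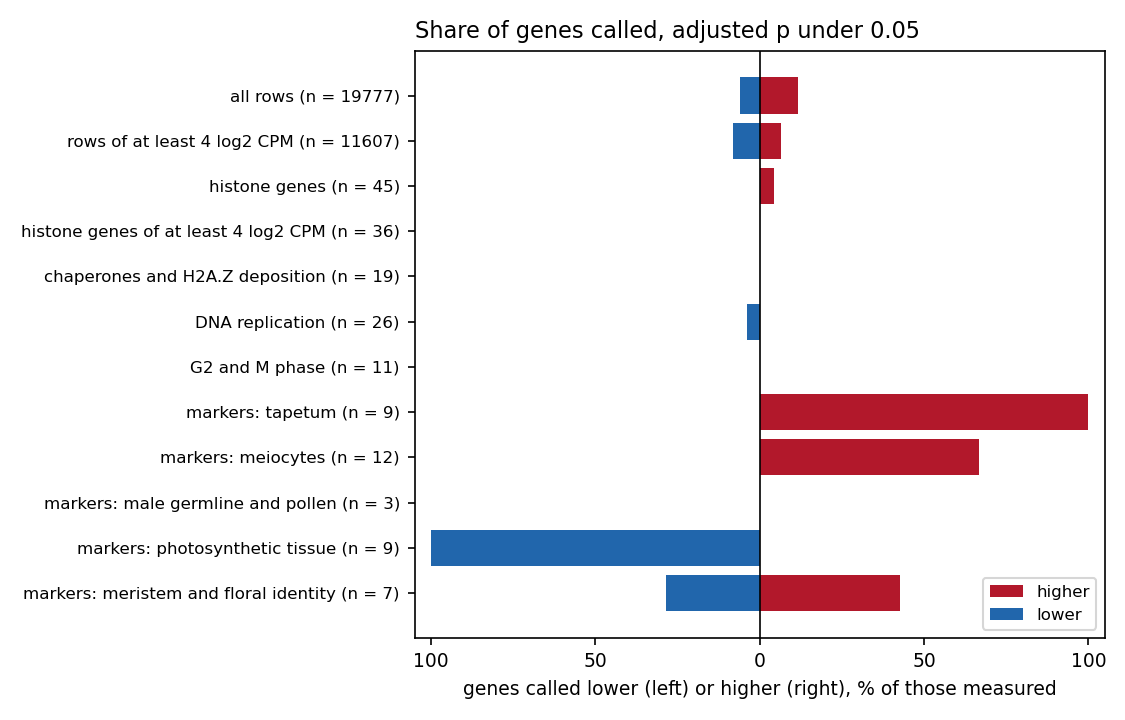
Share of measured genes called lower (left, blue) and higher (right, red) by the authors' adjusted p-values, in % of the number given in brackets. The 45 histone genes show 4.44% higher and 0% lower, against 11.6% and 5.88% of all genes.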

How the data were processed

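The members and gene lists were chosen with earlier results of these data known. The authors deposited 1 comparison table of log2 fold changes and average log2 CPM values, an F score, a p-value and an adjusted p-value per gene, per the file headers. The authors used STAR, featureCounts, edgeR and TAIR10, per the submitters' processing notes. No source used here gives versions, filters, strand, the handling of shared reads, the model or the number of control libraries. Adjusting the deposited p-values by Benjamini-Hochberg gave the deposited adjusted values to within 1.8e-15. The lines are independent per the labels, and the p-values reflect the spread among the libraries the authors compared. No depth per library is known.

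Calls are genes with an adjusted p under 0.05, by sign. The standard error is implied: the absolute log2 fold change over the square root of F, with 11.85 denominator degrees of freedom recovered from F and p for 85.4% of 13963 solvable genes (tolerance 0.02), or the gene's own lower value (5 members). It is approximate, because the authors' edgeR fold change is moderated by a prior count. CPM per kb uses the longest annotated transcript. Gene models, promoters, translated coding sequences and exact shared windows come from RefSeq's TAIR10.1 by locus identifier (45 of 45 found), since the table has no coordinates. Protein identity is over the longer protein, for the best pair of annotated isoforms. Any member could be named, with full values for called genes and the most abundant gene of a class, and up to 4 called genes of other lists. Other named members are examples of range or abundance picked after their values were seen. Python 3.11.15, SciPy 1.17.1 and Biopython 1.88 were used, and the code was tested on simulated data. Alternatives were stricter thresholds, a fold minimum, an abundance minimum, recentring and other member sets.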

Additional observations from a re-analysis of the deposited data

How the results depend on the processing

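The 2 higher and 0 lower calls among the histone genes were the same with members taken from the locus list (46 genes). They were also the same with only genes of at least 1 log2 CPM adjusted. Recentring alone gave the same counts, but it kept the deposited adjusted p-values and so could turn only the direction of a call. A further 3 settings were chosen after seeing the data. In 1 the 2 histone-fold genes were left out, and in 1 the 10 genes that overlap another gene or share 150-base windows. Only uncalled genes were left out there, so the counts could not change. The last setting, recentred with the statistic recomputed, also gave 2 higher and 0 lower. Higher calls fell to 1 at an adjusted p of 0.01 and under a minimum log2 fold change of 1, and to 0 by Bonferroni, so H2B went from 1 to 0 in the first 2 of these settings, and AT1G13370 alone was left there. By construction these settings ask for smaller p-values or larger changes. Lower calls of DNA replication genes went from 1 to 0 at 0.01 and with the abundance minimum. Recentring turned the sign of 5 uncalled genes: AT1G07820 (0.031), HTA13 (0.016), AT3G53730 (0.0029), AT5G10980 (0.037) and HTB4 (0.037). Higher calls of meiocyte markers fell to 5 at 0.01. No paired analysis was possible because no value per library was used, and the fits without 1 line were not run for the same reason. Depth is unknown, and the widest intervals belong to genes under 2 log2 CPM.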

Other observations

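Among the 40 genes of the table that are no members but whose description holds the word histone, 4 were higher and 0 lower (edgeR's quasi-likelihood test), which is 10.0% higher against 11.6% of all genes. Most of the 40 write or erase histone marks, and the H2A.X gene AT1G54690 and the chaperone genes ASF1A and HIRA, also counted in the lists above, are among them. The 4 were the deacetylase gene HDA7 (log2 fold change 3.52, adjusted p = 1.1e-05), the acetyltransferase genes AT1G67220 (2.49, adjusted p = 4.4e-05) and HAF2 (2.13, adjusted p = 6.5e-04), and AT2G35170 (1.12, adjusted p = 4.4e-04), described as a SET7/9 family methyltransferase, in the authors' deposited table. The 4 averaged between 1.85 and 3.50 log2 CPM there, under 4 log2 CPM like the 2 histone genes that rose. Their names were chosen after their values were seen.

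Of 23 genes in the authors' deposited table that have the octamer in their promoter window and are no histone members, 4 were higher and 0 lower by edgeR's quasi-likelihood test, which is 17.4% higher against 11.6% of all genes. The 23 are not all unrelated to histones: a main linker histone gene that the rule leaves out is among them, and it was not called. The difference between the 23 genes and the 9 histone members with the element was not tested.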
